A study of Mus musculus with 4 samples.

Results

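The type I interferon response genes are a list of 33 mouse genes that cells switch on after sensing type I interferon. They were chosen by name, and 32 of the 33 have a row among the 31054 rows of the count files, whereas Mx2 was not analysed here. Their RNA was followed by droplet single-cell RNA sequencing of live-sorted cells from mouse skin tumours, in 2 control and 2 NP137 libraries. NP137 is an anti-netrin-1 antibody, netrin-1 being a secreted cue for cell migration and survival, and the series asks whether blocking it inhibits the epithelial-mesenchymal transition of tumour cells. All groups were LKPR mice, whose alleles include Lgr5CreER, p53fl/fl and Rosa26-YFP+/+. Tamoxifen, given to every mouse as 4 injections of 2.5 mg from postnatal day 28, activates the Cre recombinase in cells that express Lgr5, a stem cell gene, and marks them with yellow fluorescent protein (YFP). Mice of the NP137 group received 10 mg/kg into the abdomen, an injection every 2 days that began 4 weeks after tamoxifen and went on until death, and tumours were detected 7 to 9 weeks after tamoxifen. The controls carry no treatment in the labels, so no control antibody is named. Whether each library is its own animal is not said in the labels, so the p-values measure the spread between libraries, which may be technical.

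Type I interferons are secreted proteins, interferon-beta and the interferon-alphas among them, that are made after a cell detects viral or misplaced nucleic acid. They bind the receptor Ifnar1/Ifnar2, whose kinases Jak1 and Tyk2 pass the signal on. A complex that contains Stat2 and Irf9 then binds the interferon-stimulated response element in the promoters of responding genes. The products block viral replication, raise the level of nucleic acid sensors and feed back on the receptor. In tumours the response is known in cancer cells as well as in macrophages, dendritic cells and vessels, and many of these genes also respond to interferon-gamma from T cells.

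The promoters are shown because the response element is the sequence feature that ties these genes to the pathway, and the choice of genes did not use it. RefSeq promoters of the GRCm38.p6 build, covering 250 bases before to 50 bases after the start, were available for 23 of the members. A core of the element, GAAA followed by any 2 bases and a second GAAA, was searched on both strands, and overlapping matches were counted separately. It occurred in 12 of the 23 members (52.2%) and in 1079 of 27025 genes of the table (3.99%). The 12 were Ifit1, Ifit3, Ifit3b, Isg15, Oas1a, Oas3, Rsad2, Stat2, Ifih1, Ddx58, Bst2 and Trim30a. A match is a run of letters and does not show binding. The windows of 6 members to which the values below return are written 5′ to 3′ on the strand of the gene, with the matches in capitals, so a match on the opposite strand reads TTTC, any 2 bases and TTTC.
Ifit1, chr19:34640760-34640838, plus strand: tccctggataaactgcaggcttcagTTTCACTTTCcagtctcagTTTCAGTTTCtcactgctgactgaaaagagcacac
Ifit3, chr19:34583348-34583441, plus strand: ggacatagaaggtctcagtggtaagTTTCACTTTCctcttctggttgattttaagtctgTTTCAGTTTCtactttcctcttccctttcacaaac
Ifit3b, chr19:34607744-34607837, plus strand: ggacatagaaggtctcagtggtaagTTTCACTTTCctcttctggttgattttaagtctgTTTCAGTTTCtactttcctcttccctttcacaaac
Isg15, chr4:156200850-156200921, minus strand: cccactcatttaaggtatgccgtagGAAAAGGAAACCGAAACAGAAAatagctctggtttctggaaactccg
Bst2, chr8:71537562-71537627, minus strand: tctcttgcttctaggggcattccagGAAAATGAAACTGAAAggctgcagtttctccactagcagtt
Oas1a, chr5:120907505-120907570, minus strand: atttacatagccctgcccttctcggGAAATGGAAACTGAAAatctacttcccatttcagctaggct
Isg15 held 3 overlapping matches, and the other 5 windows held 2 each. The promoters of Ifit3 and Ifit3b, neighbouring copies on chromosome 19, aligned over 260 bases with 259 identical (99.6%). Reads of such near-identical copies may be divided unevenly between them, so the values of Ifit3 and Ifit3b, and likewise those of Oas1a and Ifi204 with their close relatives, are uncertain as to which copy they come from.

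After filtering, 10482, 5301, 14205 and 14513 cells remained in control 1, control 2, NP137 1 and NP137 2, with median depths of 4566.5, 6044, 2352 and 5196 unique molecules (UMIs) per cell. Pairs of libraries shared 24 to 86 cell barcodes, 0.288% to 0.578% of the smaller library. Cells were clustered without the members or the other genes of the pathway. Clusters in which at least 50% of cells held a YFP UMI were called tumour cells, 4702, 1326, 3211 and 956 in the 4 libraries. The lowest such cluster stood at 73.6% and the next cluster at 27.1%. The tumour cells of the groups differed in state. Levels are given as CPM, the UMIs of a gene scaled to a total of 1000000 UMIs of the class in that library. The summed level of 13 keratinocyte and epithelial markers was 3123 and 1695 CPM in the controls and 19614 and 21951 in the NP137 libraries, whereas 10 fibroblast markers summed to 8225 and 5440 in the controls and 382 and 690 under NP137. Treatment and tumour cell state cannot be told apart in tumour cells. NP137 1 held cells of both sexes, so that library was not made from a single animal.

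Tumour cells carried less of the response than the vascular, stromal and immune classes around them. The method counts the 3′ ends of transcripts, so these levels do not scale with gene length. The members summed to 234 and 724 in the tumour cells of control 1 and control 2, and to 108 and 206 in those of NP137 1 and NP137 2. In macrophage or monocyte-like cells the sum was 1603 and 4120 in the controls and 1875 and 4500 under NP137. Each macrophage value lay above every tumour value. In blood endothelial-like cells the sum was 988, 3850, 736 and 1387 in the same order of libraries. Control 2 stood above the other 3 in tumour and endothelial cells, and NP137 1 was the lowest. In neutrophil-like cells the members summed to 914, 1910, 1092 and 2113, and in T cell-like cells to 1186, 1379, 892 and 2749. In these immune classes NP137 2 was the highest library. Without Ifi27l2a control 2 and NP137 2 were close, at 1665 and 1693 in neutrophil-like and at 1093 and 1124 in T cell-like cells. Fibroblast-like cells stood at 935, 2058, 578 and 1835, and pericyte or smooth muscle-like cells at 1173, 2009, 655 and 1761. In both stromal classes control 2 and NP137 2 were high and NP137 1 was low. Keratinocyte or epithelial-like cells without the tumour label stood at 197, 206 and 188 in the 3 libraries with at least 50 such cells, control 1, control 2 and NP137 1, where tumour cells stood at 234, 724 and 108. In control 2, 1519 of the 2581 such cells came from a cluster led by AY036118 and Krt79. An Epcam UMI was found in 19.2% of that cluster's cells, and their median depth was 0.139 of the library median. Clustered on all variable genes, the class held 907 cells in control 2. The highest class was a group of 59 plasmacytoid dendritic-like cells in NP137 2, the cell type known as a major source of interferon-alpha, at 7152. Bst2 alone made up 63.7% of that sum, at 4550, and 23 members had a UMI in these cells. The rank of the class therefore rests largely on 1 gene.

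**Figure D1:**
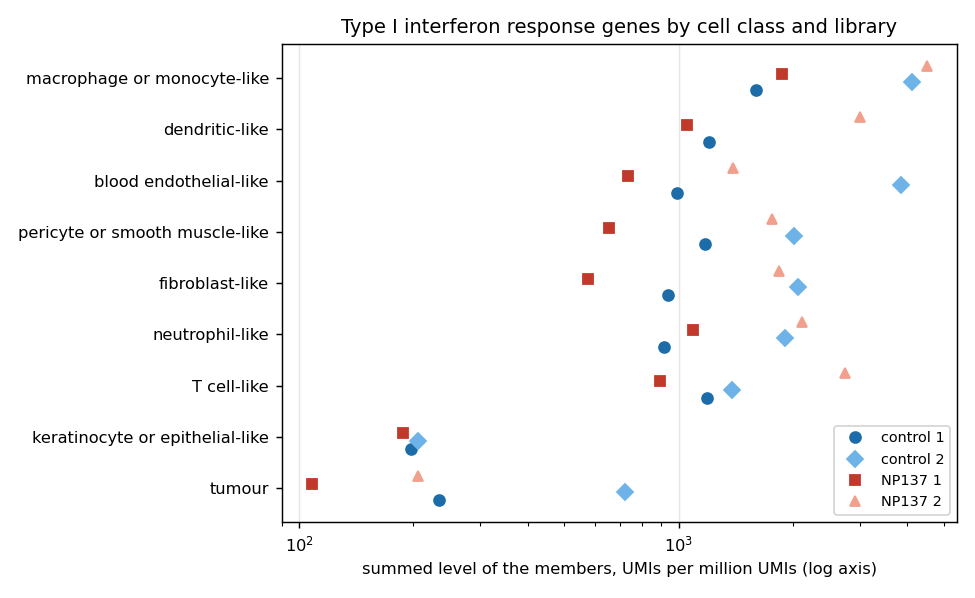
Summed level of the 32 members in CPM (horizontal, log axis) for 9 cell classes, with a point for each library that had at least 50 cells of the class. Tumour and keratinocyte or epithelial-like cells lie at 108 to 724, and the macrophage or monocyte-like cells at 1603 to 4500.

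Tumour cells held more UMIs per cell than most other classes, which changes the order when molecules are counted per cell. The mean number of member UMIs per tumour cell was 2.52, 18.5, 0.979 and 3.96 in control 1, control 2, NP137 1 and NP137 2. Per macrophage or monocyte-like cell it was 6.46, 38.9, 4.18 and 28.6, above the tumour cells of the same library in each case. Per neutrophil-like cell it was 1.63, 9.08, 1.02 and 3.99, which lay below the tumour cells of the controls and near those of the NP137 libraries. When each cell was thinned to 2000 UMIs, 32.8%, 51.0%, 18.0% and 30.4% of tumour cells held at least 1 member UMI. The shares among macrophage or monocyte-like cells were 80.4%, 96.1%, 89.4% and 95.1%, and among blood endothelial-like cells 72.6%, 95.1%, 62.2% and 79.8%. Thinning left out 37 to 416 tumour cells and 20 to 568 macrophage or monocyte-like cells per library. No class that should lack the members was at hand as a background for free RNA. YFP RNA, which recombined cells make, stood at 467 to 830 CPM in tumour cells and at 5.07 to 49.1 in macrophage or monocyte-like cells. It reached more in other classes, at 13.5 to 140 in T cell-like and 17.6 to 123 in neutrophil-like cells. Pericyte or smooth muscle-like cells stood at 3.42 to 80.8, endothelial cells at 6.89 to 72.2 and fibroblast-like cells at 2.95 to 36.3. Keratinocyte or epithelial-like cells without the tumour label stood at 131, 73.5 and 242 in control 1, control 2 and NP137 1.

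The contrast between classes was tested inside each library, with the library as a block, and the gene groups below follow the roles of the members. Macrophage or monocyte-like cells had 29 of 32 members higher than tumour cells, and 0 lower, at an adjusted p under 0.05 in edgeR's quasi-likelihood test. Over all 14371 genes 21.1% were higher and 20.9% lower in that comparison. The median log2 fold change of the members was 3.73, against -0.11 over all genes. In blood endothelial-like cells 25 of 31 members were higher (background 14.6%) and 1, Isg20, was lower (background 16.2%), with a median of 3.09 against -0.12 over all genes. Pericyte or smooth muscle-like cells had 21 of 31 members higher (background 11.1%) and a median of 2.45, against -0.10 over all genes. Fibroblast-like cells had 18 of 32 higher (background 11.1%) and a median of 2.55, against -0.12 over all genes. Neutrophil-like cells had 20 of 32 higher (background 19.5%) and a median of 2.76, against -0.33 over all genes. T cell-like cells had 13 of 32 higher (background 12.5%) and a median of 2.06, against -0.17 over all genes. In these 4 classes 0 members were lower, where 11.8%, 13.5%, 23.9% and 14.0% of all genes were. Without NP137 1 the counts fell to 17 higher members in endothelial (background 7.84%), 9 in pericyte or smooth muscle (4.27%), 6 in fibroblast (3.24%) and 7 in T cell-like cells (7.02%), and without control 1 the T cell-like count fell to 6 (8.93%). In each of these comparisons the median stayed above 0.

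**Figure D2:**
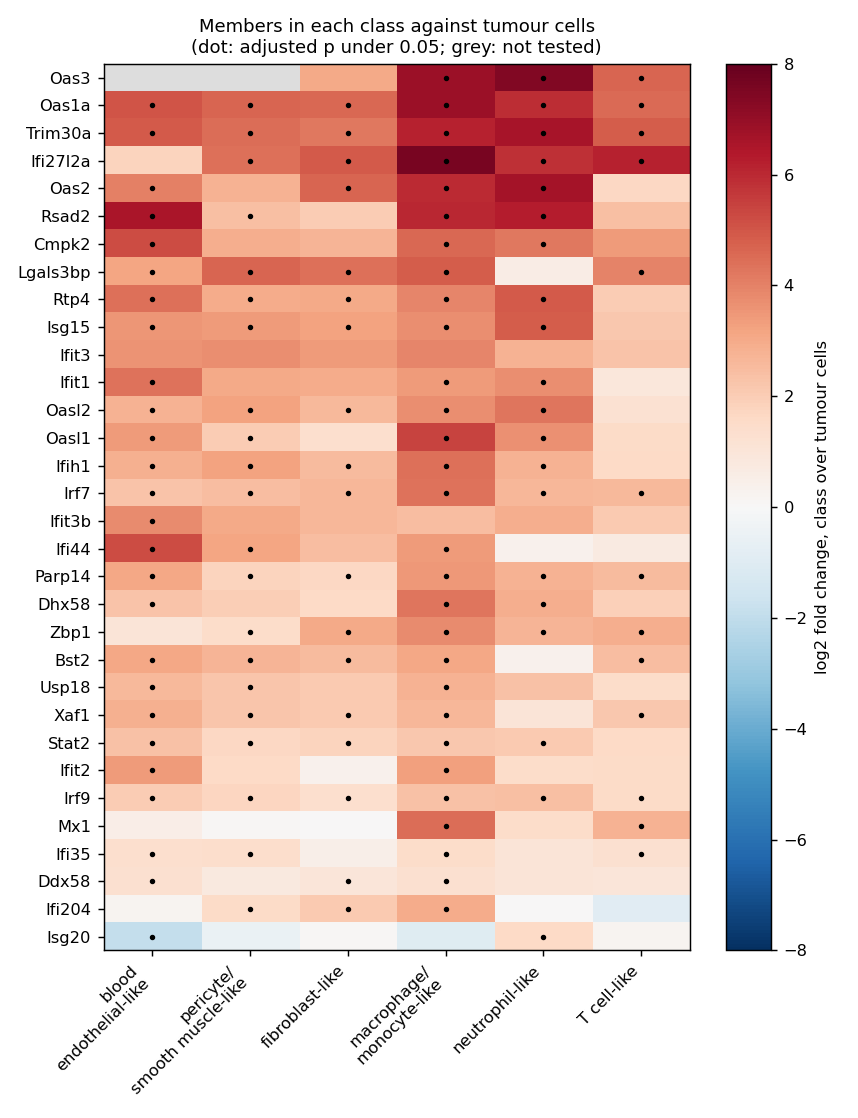
Log2 fold change of each member (rows) in 6 classes over tumour cells (columns), from edgeR with the library as a block; red is higher in the class, a dot marks an adjusted p under 0.05, and grey marks a gene not tested. Most cells are red, and Isg20 in blood endothelial-like cells is the member called lower.

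Among the effectors, the 2′-5′ oligoadenylate synthetases, which make the messenger that activates RNase L, were nearly silent in tumour cells. Oas3 was counted at 6, 5, 8 and 4 UMIs over all tumour cells of control 1, control 2, NP137 1 and NP137 2, and Oas2 at 4, 4, 1 and 17. In macrophage or monocyte-like cells Oas3 stood at 10.9, 30.1, 9.64 and 35.5 CPM, above 0.118 to 0.276 in tumour cells, a log2 difference of 6.87 (adjusted p = 0.00046). In neutrophil-like cells Oas3 stood at 24.9, 23.9, 16.1 and 32.9 with a log2 difference of 7.42 (adjusted p = 5.7e-06). The groups of values of both classes stood clear of the tumour cells. Oas1a was higher in each of the 6 classes, by 4.55 to 6.82 on the log2 scale. Their relatives Oasl1 and Oasl2 were higher in macrophage or monocyte-like, neutrophil-like, endothelial and pericyte or smooth muscle-like cells, and Oasl2 also in fibroblast-like cells.

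Rsad2, or viperin, an enzyme that makes a chain-terminating nucleotide, followed a vascular and myeloid pattern among the 6 classes tested. The untested red cell-like cells held it at 319 CPM in control 1 (54 cells) and 434 in NP137 2 (64 cells). In the 4 such cells of control 2 and the 7 of NP137 1 it stood at 0 and 355. In blood endothelial-like cells it stood at 84.5, 355, 14.9 and 57.0 CPM in control 1, control 2, NP137 1 and NP137 2, while the 4 tumour values were 1.18, 2.10, 0.276 and 0.435. The endothelial values exceeded the tumour values of every library, and the log2 difference was 6.55 (adjusted p = 0.00024). The differences in macrophage or monocyte-like and neutrophil-like cells were 6.04 and 6.28. In T cell-like and fibroblast-like cells Rsad2 did not pass the test (adjusted p = 0.13 and 0.098). Cmpk2, a nucleotide kinase encoded beside Rsad2, was higher in endothelial cells (log2 difference 5.19), in macrophage or monocyte-like cells (4.61) and in neutrophil-like cells (4.21).

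Isg15, a ubiquitin-like protein that is attached to other proteins, was among the 3 most abundant members of most classes. Its level in blood endothelial-like cells was 158, 927, 108 and 187, and in neutrophil-like cells 208, 801, 223 and 612. Control 2 was the highest library in both classes. The neutrophil-like cells exceeded the tumour cells by 4.83 on the log2 scale (adjusted p = 0.004). In T cell-like cells, at 73.4, 67.0, 66.4 and 123, Isg15 did not pass the test (adjusted p = 0.13). Bst2, or tetherin, which holds budding virus at the membrane, stood at 2160, 4700, 2640 and 4550 in plasmacytoid dendritic-like cells, although only NP137 2 had 50 or more such cells. Bst2 was higher than in tumour cells in endothelial, pericyte or smooth muscle, fibroblast, macrophage or monocyte and T cell-like cells, by 2.47 to 3.12 on the log2 scale, and its difference in neutrophil-like cells was 0.36 (adjusted p = 0.77).

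The Ifit genes encode RNA-binding proteins that block translation of foreign RNA. Ifit1 stood at 32.6, 330, 24.2 and 31.3 in blood endothelial-like cells, where control 2 was far above the other 3 libraries, and the log2 difference to tumour cells was 4.37 (adjusted p = 0.0074). Ifit1 also passed in macrophage or monocyte-like cells (3.43) and in neutrophil-like cells (3.71). Ifit3 passed in none of the 6 classes, with log2 differences of 2.27 to 3.91 and an adjusted p of 0.053 in macrophage or monocyte-like cells. Isg20, an exonuclease, went a different way from the rest. Its tumour levels were 24.0, 19.7, 25.1 and 89.3, against 7.04, 14.9, 4.65 and 13.2 in blood endothelial-like cells, a log2 difference of -1.90 (adjusted p = 0.03). That call was lost when control 1, NP137 1 or NP137 2 was left out. In neutrophil-like cells Isg20 was higher than in tumour cells, by 1.59 (adjusted p = 0.0044).

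Mx1, a dynamin-like GTPase that traps viral particles, was higher in macrophage or monocyte-like cells (log2 difference 4.46, adjusted p = 0.00097) and in T cell-like cells (2.79, adjusted p = 0.039). Ifi27l2a, a small membrane protein, had the highest mean level of the members in macrophage or monocyte-like and in T cell-like cells. It stood at 580, 1430, 911 and 2051 in macrophage or monocyte-like cells and at 445, 286, 356 and 1625 in T cell-like cells. NP137 2 was the highest library in both, and in the T cell-like cells of control 2 Bst2 was above it, at 398. Its tumour levels were 6.15, 5.56, 3.21 and 19.9, and the log2 difference was 7.60 (adjusted p = 0.00037) in macrophage or monocyte-like cells and 6.18 (adjusted p = 4.1e-06) in T cell-like cells. In endothelial cells Ifi27l2a did not pass (adjusted p = 0.057).

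Among the sensors, Ifih1 (MDA5) and Ddx58 (RIG-I) detect viral RNA, Dhx58 (LGP2) assists them, Zbp1 binds Z-form nucleic acid and Ifi204 senses DNA. Ifih1 was higher than in tumour cells in all classes but the T cell-like cells, by 2.55 to 4.38 on the log2 scale. Ddx58 differed less, by 0.78 to 1.28, and passed in endothelial, macrophage or monocyte-like and fibroblast-like cells. Zbp1 passed in every class but the endothelial cells (adjusted p = 0.097). Ifi204 was higher in macrophage or monocyte-like cells by 2.96 and in fibroblast-like cells by 2.10. In T cell-like cells its difference was -0.91 (adjusted p = 0.31). Of the regulators, Irf7, which drives the interferon-alpha genes, and Irf9, the DNA-binding partner of Stat2, were higher in all 6 classes. The Irf7 differences ran from 2.26 in endothelial to 4.32 in macrophage or monocyte-like cells. Stat2 was higher in every class but the T cell-like cells (adjusted p = 0.054). Usp18, which removes Isg15 from proteins and dampens the receptor, was higher in endothelial, pericyte or smooth muscle-like and macrophage or monocyte-like cells, by 2.24 to 2.80.

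Of the remaining members, Trim30a, a ubiquitin ligase, was higher in all 6 classes by 4.22 to 6.61, and Parp14, an ADP-ribosyltransferase, by 1.64 to 3.45. Lgals3bp, a secreted galectin-binding glycoprotein, was higher in all but the neutrophil-like cells, where its levels were 5.09, 8.67, 4.02 and 12.5 and its difference was 0.58 (adjusted p = 0.40). Ifi44 was called in endothelial, pericyte or smooth muscle-like and macrophage or monocyte-like cells. Rtp4, a chaperone-like protein, was called in all but the T cell-like cells. Ifi35 and Xaf1, a binding partner of the apoptosis inhibitor XIAP, were called in 4 and 5 of the classes with log2 differences of 0.47 to 1.46 and 1.02 to 2.83 over all 6.

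In tumour cells most members were lower under NP137 than in control, and none passed the test. At an adjusted p under 0.05, edgeR called 0 of the 30 members tested (background 0.00706%, 1 of 14166 genes), and DESeq2 called 14, all lower (background 15.9% in all, 8.88% lower and 7.06% higher). Of the 30, 28 had a log2 fold change below 0, with a median of -1.80 against -0.03 over all genes. At an unadjusted p under 0.05 edgeR counted 20 of the 30, where 23.5% of all genes did so. The count was 7 without control 2 (background 17.8%), 9 without NP137 1 (18.3%), 11 without NP137 2 (13.9%) and 16 without control 1 (18.9%). The TMM-scaled values of 23 members were lower in both NP137 libraries than in either control (background 29.9%). Those of 1 member, Isg20, were higher (background 27.6%). The summed level, scaled by TMM, gave a log2 ratio of -1.32 with an SD of 0.936 between libraries of a group, and of -0.34 without control 2. Without control 1, edgeR called 7 members lower (background 1.73%). With no doublets removed the median of the members was -0.66 and 4 of 31 had an unadjusted p under 0.05, against 19.9% of all genes. The tumour class changed in that setting. Of its 1303 cells in NP137 2, 254 came from a cluster led by Ighg2c and Mzb1 whose markers were those of plasma cells.

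**Figure D3:**
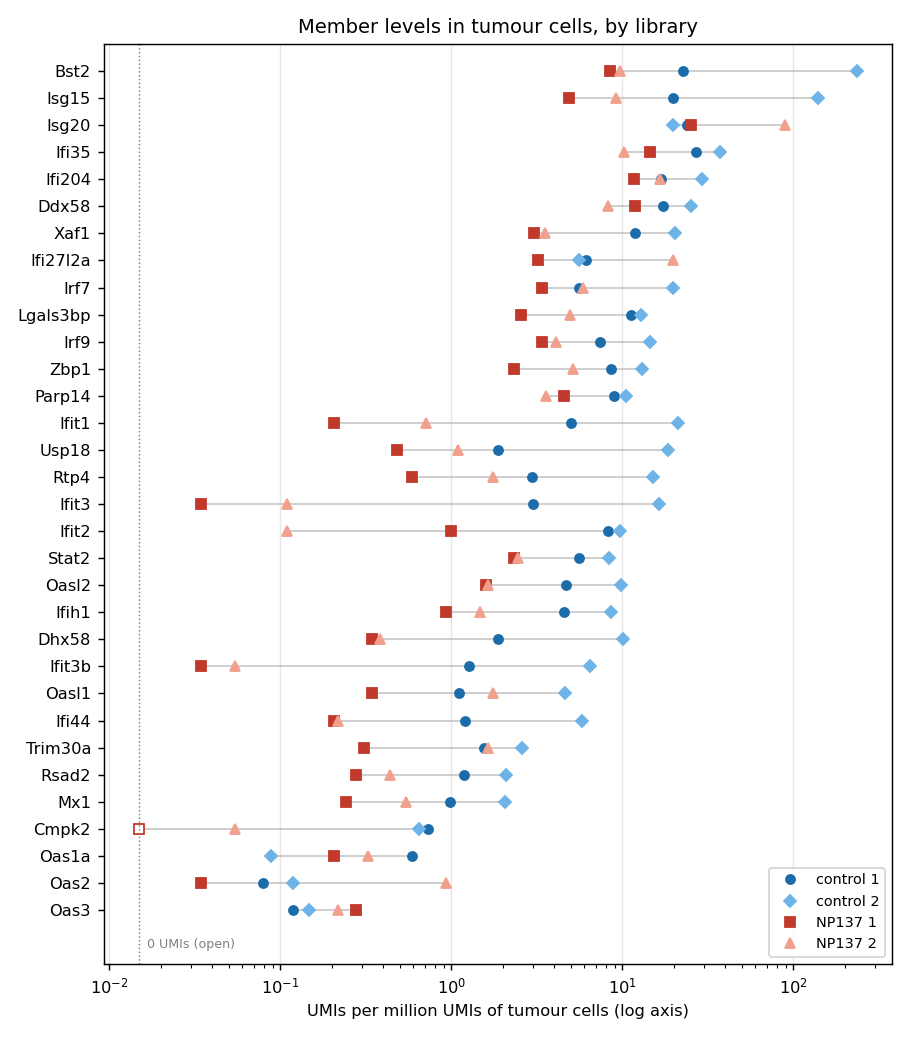
Level of each of the 32 members in tumour cells in CPM (horizontal, log axis), with a point for each library and a grey line from the lowest to the highest; the open square marks 0 UMIs. Most members have both control libraries (blue) to the right of both NP137 libraries (red), and control 2 is the highest for Bst2 and Isg15.

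Ifit3, Ifit3b, Ifit1 and Ifit2 were among the 5 members of smallest p, with Xaf1 the other one. Ifit3 was counted at 152 and 555 UMIs in the tumour cells of control 1 and control 2, and at 1 and 2 UMIs in those of NP137 1 and NP137 2. These are levels of 3.00, 16.4, 0.0345 and 0.109 CPM, and the log2 fold change was -6.85 (SE 1.27, adjusted p = 0.079). Control libraries lay above NP137 libraries without overlap. Ifit3b, its near copy, was counted at 64, 220, 1 and 1 UMIs (log2 fold change -6.12, SE 1.26, adjusted p = 0.0875). Ifit1 stood at 4.99 and 21.1 in the controls and at 0.207 and 0.707 under NP137 (log2 fold change -4.59, SE 1.05, adjusted p = 0.098). Ifit2 stood at 8.28, 9.75, 1.00 and 0.109. For Ifit1 and Ifit2 too the groups did not overlap, and for Ifit1, Ifit3 and Ifit3b control 2 exceeded control 1 several-fold. After thinning, 0.257% and 2.25% of control tumour cells held an Ifit3 UMI, and none of the 2985 and 919 NP137 tumour cells did, which allows shares of up to 0.124% and 0.401% (exact 95% binomial intervals, for counting error only).

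Bst2 and Isg15 had the highest mean levels in tumour cells, which rested on control 2. In each of the other 3 libraries Isg20 and Ifi35 were above both. Bst2 stood at 22.7 in control 1, 234 in control 2, 8.41 in NP137 1 and 9.63 in NP137 2 (log2 fold change -3.55, SE 1.09, adjusted p = 0.149). Isg15 stood at 19.8, 139, 4.90 and 9.20 (log2 fold change -3.20, SE 0.99, adjusted p = 0.15). Both genes were lower in both NP137 libraries than in either control, and control 2 held most of their UMIs. After thinning, 3.43%, 12.9%, 1.01% and 1.85% of tumour cells held an Isg15 UMI, and without thinning 9.57%, 40.6%, 3.27% and 8.89% did. Usp18 stood at 1.87, 18.6, 0.483 and 1.09, Rtp4 at 2.98, 15.2, 0.586 and 1.74, and Dhx58 at 1.87, 10.1, 0.345 and 0.381. In these 3 as well control 2 was far above control 1.

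In Xaf1, Ifi35 and Ifih1 the controls were nearer to each other. Xaf1 stood at 11.9 and 20.4 in the controls and at 3.03 and 3.54 under NP137 (log2 fold change -2.04, SE 0.42, adjusted p = 0.088). Ifi35 stood at 27.1, 37.4, 14.5 and 10.2 (log2 fold change -1.14, SE 0.32, adjusted p = 0.129). Ifih1 stood at 4.56, 8.57, 0.931 and 1.47. The 2 groups were apart for each of these 3 genes. Ddx58 stood at 17.2, 25.1, 11.9 and 8.27 and Ifi204 at 16.8, 29.4, 11.7 and 16.7, with control 1 and NP137 2 at nearly the same Ifi204 level. Ifi44 stood at 1.20, 5.82, 0.207 and 0.218. Cmpk2 was counted at 37, 22, 0 and 1 UMIs, where 3 UMIs would be a level of 0.103 CPM in NP137 1. Both genes were near the limit of counting under NP137.

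Stat2 stood at 5.54 and 8.36 in the controls and at 2.31 and 2.45 under NP137, and Irf9 at 7.42, 14.4, 3.38 and 4.08. Irf7 stood at 5.58, 19.7, 3.38 and 5.88, so that control 1 and NP137 2 overlapped. Of the effectors, Oasl2 stood at 4.65, 9.78, 1.59 and 1.63 and Rsad2 at 1.18, 2.10, 0.276 and 0.435. Mx1, Parp14, Lgals3bp and Zbp1 were also lower in both NP137 libraries, with log2 fold changes of -1.70, -1.01, -1.42 and -1.27. Oasl1, Trim30a and Oas1a had overlapping groups, and Oas2 and Oas3 did not pass the filter on low counts. Isg20 and Ifi27l2a were the 2 members with a fold change above 0. Isg20 stood at 24.0 and 19.7 in the controls and at 25.1 and 89.3 under NP137 (log2 fold change 1.67, SE 0.67, adjusted p = 0.223). NP137 2 carried that difference, since NP137 1 was close to control 1. Ifi27l2a stood at 6.15, 5.56, 3.21 and 19.9, with NP137 2 again alone at the top.

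Tumour clusters were compared within libraries as a description, since cells of a library share their source. Clusters in which at least 50% of cells held an Epcam UMI, Epcam being an epithelial adhesion protein, were called Epcam-high, a division made after the values were seen. In control 1 the 315 Epcam-high cells had a member sum of 145 and the 4387 Epcam-low cells one of 243. In NP137 1 the 2543 Epcam-high cells stood at 104 and the 668 Epcam-low cells at 123. Within each of these libraries the Epcam-low cells were higher. Control 2 had fewer than 50 Epcam-high cells, so whether the groups overlapped could not be judged for that state. Among Epcam-high cells, control 1 lay between NP137 1 at 104 and NP137 2 at 206. Without Isg20 these sums were 116 in control 1, 77.1 in NP137 1 and 117 in NP137 2. Among Epcam-low cells the 2 controls, at 243 and 743, lay above NP137 1 at 123, and NP137 2 had too few such cells. In the cluster led by Acan and Krt8, which both libraries share, control 1 stood at 186 and the 57 cells of NP137 1 at 181, and in the one led by Fxyd2 and Rbp4 they stood at 263 and 120. Ifit1 was 0.646 in the Epcam-high and 5.43 in the Epcam-low cells of control 1, and 0.133 and 0.470 in those of NP137 1. All of these Ifit1 levels but the 5.43 rest on a few UMIs. Bst2 was 2.58 in the Epcam-high and 24.8 in the Epcam-low cells of control 1, and 6.85 and 13.9 in those of NP137 1. Isg20 went the other way, at 28.8 and 23.5 in control 1 and 26.97 and 18.3 in NP137 1. The control clusters did not share 1 level, since the largest cluster of control 2, led by Mgp and Crisp1, stood at 744, and the control 1 cluster led by Mme and H19 stood at 304.

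**Figure D4:**
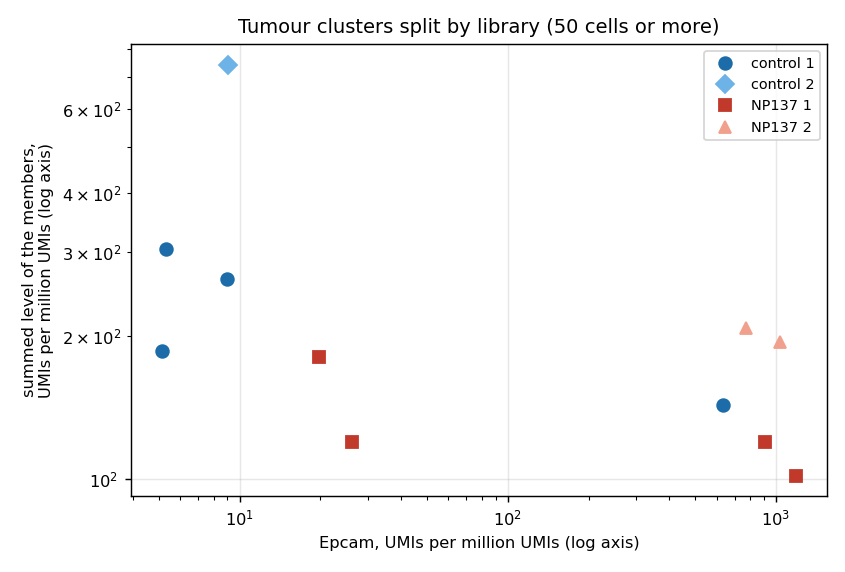
Summed member level against Epcam level, both in CPM on log axes, for tumour clusters split by library with at least 50 cells. The control 2 cluster stands apart at 744, and at high Epcam the control 1 cluster at 143 lies between the NP137 1 and NP137 2 clusters.

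Markers of other cells in the tumour class were followed beside these values. The summed level of 12 macrophage or monocyte markers in tumour cells was 103, 31.1, 42.7 and 129 CPM in control 1, control 2, NP137 1 and NP137 2, and that of 10 blood endothelial markers was 30.1, 66.4, 46.3 and 46.6. All 12 and all 10 had a UMI in each library. The 8 neutrophil markers summed to 112, 213, 323 and 852, with both NP137 libraries above both controls. The 10 pericyte or smooth muscle markers summed to 129, 51.3, 146 and 308, and the 10 T cell markers to 74.4, 114, 119 and 52.8. The endothelial sum was highest in control 2, like the member sum, and the macrophage or monocyte sum was lowest there. Their part in the member levels was not tested.

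In the other 6 classes edgeR and DESeq2 called 0 members between NP137 and control. The background was 0.0% by edgeR in each class. By DESeq2 it was 0.0% in endothelial, 0.0341% in pericyte or smooth muscle, 0.0378% in fibroblast, 0.0528% in macrophage or monocyte, 0.078% in neutrophil and 0.142% in T cell-like cells. At an unadjusted p under 0.05 edgeR counted 0 endothelial (background 8.31%), 3 pericyte or smooth muscle (3.73%), 0 fibroblast (5.41%), 0 macrophage or monocyte (3.67%), 1 neutrophil (3.93%) and 2 T cell-like members (7.7%). Single libraries moved these counts too. They reached 15 in endothelial cells without control 1 (background 9.58%), 15 in pericyte or smooth muscle-like cells without NP137 2 (3.18%), 7 in fibroblast-like cells without NP137 2 (2.49%) and 8 in T cell-like cells without NP137 1 (15.2%). They reached 5 in neutrophil-like cells without NP137 1, where 729 of 9659 genes did so, and 3 in macrophage or monocyte-like cells without control 2, where 405 of 12579 did. In blood endothelial-like cells 26 of the 28 members tested had a log2 fold change below 0, with a median of -0.87, but without control 2 the median was 0.24. Isg15, Ifit1, Irf7, Ifih1 and Oasl1 passed as lower there when control 1 was left out (background 0.352%). In pericyte or smooth muscle-like cells 22 of 23 were below 0, with a median of -0.72 and of -0.10 without control 2. In fibroblast-like cells the median was -0.34 over 29 members, 0.38 without control 2 and -1.71 without NP137 2. In macrophage or monocyte-like cells it was -0.05 over 32 members, and it ran from -1.08 without NP137 2 to 0.88 without control 2. In neutrophil-like cells the median was 0.42 over 28 members and -0.53 without NP137 2. In T cell-like cells it was 0.18 over 13 members and -0.62 without NP137 2, and 4 members, Zbp1, Ifi27l2a, Rtp4 and Ifit1, passed as higher without NP137 1 (background 1.4%). The clusters behind the neutrophil-like class differed by library, one holding 2970 cells of NP137 2 and the other 873 of control 1 and 2391 of NP137 1. Of the T cell-like cells, a cluster led by Cd3g and Trdc held 31 of 222 in control 1, 45 of 95 in control 2, 64 of 424 in NP137 1 and 1 of 812 in NP137 2. A macrophage or monocyte-like cluster led by Ccl6 and Folr2 held 685 cells of NP137 2 and 0 to 9 of each other library.

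**Figure D5:**
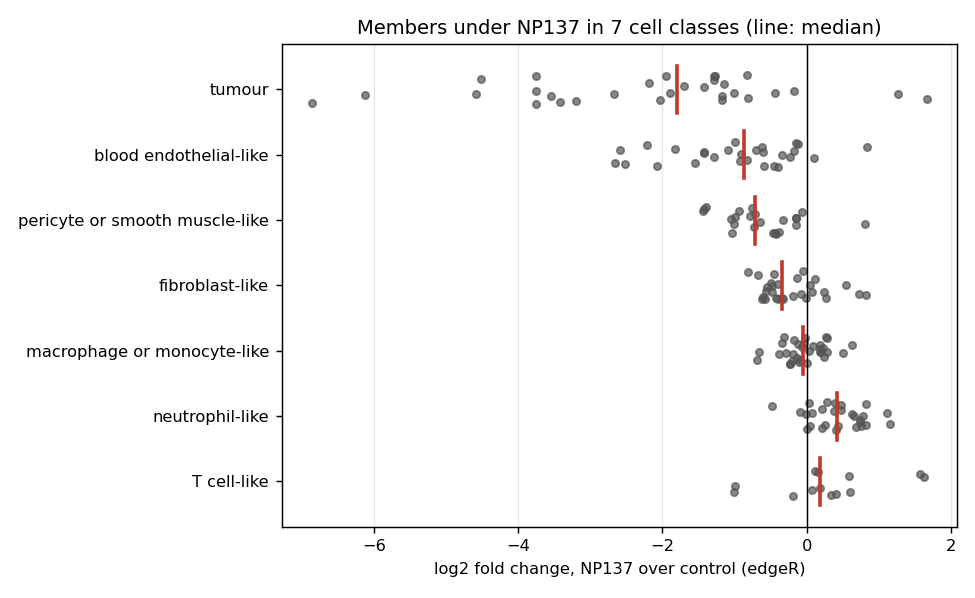
Log2 fold change of each member tested, NP137 over control, by cell class, with a red line at the median. Tumour cells reach from -6.85 to 1.67 with a median of -1.80, and the macrophage or monocyte-like cells lie close to 0.

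The library that was most often highest differed between classes, whereas NP137 1 was most often the lowest in each class listed here. The same counts over all genes were not made. In tumour cells control 2 was the highest library for 26 of the 32 members and NP137 1 the lowest for 25. In blood endothelial-like cells the numbers were 29 and 25, and in pericyte or smooth muscle-like cells 28 and 29. In macrophage or monocyte-like cells control 2 was the highest for 20 members and NP137 2 for 11, and NP137 1 was the lowest for 24. In fibroblast-like cells control 2 was the highest for 18 and NP137 2 for 14, and NP137 1 was the lowest for 29. In neutrophil-like cells NP137 2 was the highest for 18 and control 2 for 11, and NP137 1 was the lowest for 18. In T cell-like cells NP137 2 was the highest for 23 and control 2 for 3. There NP137 1 was the lowest for 18 and control 2 for 8.

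Whether the NP137 difference itself varied between classes was tested as a class by treatment term. The term subtracts the difference in tumour cells, in which treatment and tumour cell state cannot be told apart. Against tumour cells, 8 of 32 members had a higher NP137 effect in neutrophil-like cells (background 1.28%), 4 of 32 in T cell-like cells (background 0.973%), 2 of 32 in fibroblast-like cells (background 1.37%), 1 of 31 in pericyte or smooth muscle-like cells (background 0.608%), 0 of 31 in blood endothelial-like cells (background 0.368%) and 0 of 32 in macrophage or monocyte-like cells (background 0.0%). In the endothelial and macrophage or monocyte-like classes DESeq2 called 6 and 10 members as higher (background 2.47% and 2.14%), and at an unadjusted p under 0.05 edgeR counted 13 and 20 (background 13.4% and 12.3%). Ifit3 was called in 4 of the classes and Ifit1 in 3. Ifit3 stood at 4.73 and 5.29 in the T cell-like cells of the controls and at 2.01 and 26.9 in those of NP137, whereas its tumour levels were 3.00, 16.4, 0.0345 and 0.109. The T cell-like levels rest on 2, 3, 1 and 60 UMIs and the NP137 tumour levels on 1 and 2. The fitted difference of the effects was 8.01 on the log2 scale (SE 1.34, adjusted p = 0.0005). Its T cell-like values overlapped between groups, and its tumour values did not. These counts of higher members moved with single libraries. They ran from 1 to 11 in T cell-like, from 1 to 13 in fibroblast-like, from 2 to 12 in neutrophil-like and from 0 to 6 in macrophage or monocyte-like cells, and the highest counts came without NP137 1 (background 2.85%, 6.96%, 3.15% and 1.25%). In pericyte or smooth muscle-like and endothelial cells they ran from 0 to 4 and from 0 to 3, with the highest without control 1 (background 1.27% and 0.835%).

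The ligands were close to the limit of counting. Ifnb1, interferon-beta, was counted at 158, 23, 17 and 13 UMIs over all cells of control 1, control 2, NP137 1 and NP137 2. Macrophage or monocyte-like cells held 145, 22, 16 and 8 of these, levels of 14.9, 7.19, 5.93 and 0.597 CPM. Control 1 was the highest and NP137 2 the lowest. The member sum in the same cells was lowest in control 1 (1603) and highest in NP137 2 (4500). Without Ifi27l2a that sum was 1022, 2690, 965 and 2449 in the same order of libraries, highest in control 2 and lowest in NP137 1. The NP137 difference of Ifnb1 did not pass (log2 fold change -2.01, SE 1.15, adjusted p = 0.99), and its level against tumour cells did (8.48, adjusted p = 0.00062). Ifna16, an interferon-alpha, was counted at 6 UMIs, all in 1 macrophage or monocyte-like cell of control 2. Ifng, interferon-gamma, was counted at 44, 63, 19 and 184 UMIs in T cell-like cells, levels of 104, 111, 38.2 and 82.6.

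Of the other genes of the pathway in tumour cells, none passed edgeR's test between NP137 and control. The lists held 8 receptors and kinases, 13 factors and regulators, 12 sensors and adaptors and 46 other interferon-induced genes that could be tested. Their median log2 fold changes were -0.53, -0.33, -0.16 and -0.90. Among the 46 induced genes 13 were lower and 3 higher at an unadjusted p under 0.05, where 23.5% of all genes passed in either direction. Cxcl10, a chemokine that draws T cells, had TMM-scaled levels of 47.4 and 52.9 CPM in the controls and 8.58 and 4.57 under NP137 (log2 fold change -2.92, SE 0.40, adjusted p = 0.058). Tmem173, which encodes the DNA-sensing adaptor STING, stood at 20.3, 19.6, 2.81 and 1.24 (log2 fold change -3.28, SE 0.51, adjusted p = 0.065). Gbp2, a guanylate-binding protein, stood at 31.3, 17.3, 3.102 and 3.28. The 2 controls of these 3 genes were nearer to each other than those of Isg15 or Bst2. Ifngr1, a receptor chain for interferon-gamma, stood at 65.7, 53.5, 20.7 and 20.2 (log2 fold change -1.54, SE 0.26, adjusted p = 0.071). Ifnar1, a receptor chain for type I interferon, stood at 18.3, 18.4, 13.6 and 16.2. Epsti1, another interferon-induced gene, was higher under NP137 in both libraries, at 1.23, 1.32, 9.81 and 33.4 (log2 fold change 4.08, SE 0.71, adjusted p = 0.074).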

How the data were processed

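The authors deposited filtered tables of UMI counts for each gene and barcode, written by 10x software 3.0.2 per the file headers. The submitters' processing notes name mm10 and Seurat 3.1.5, and how barcodes were called as cells is not stated in the labels. All live cells had been sorted after collagenase digestion, per the labels' protocols.

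The members and all gene lists were chosen with earlier results of these data known. Barcodes needed 200 genes and less than 20% mitochondrial UMIs, which kept 11677, 5679, 16617 and 16914. Doublets were taken as the top Scrublet scores at a rate of 0.8% for every 1000 barcodes, 1195, 378, 2412 and 2401 in number. Clustering left the members and pathway genes out of the 2000 variable genes and used 30 principal components, 15 neighbours and Leiden resolution 1 (33 clusters). Names ending in "-like" came from marker lists, and clusters with too few markers stayed unnamed. The larger T cell-like cluster was also led by Nkg7, Gzmb and Gzma. Library totals were 88076950, 73685280, 69517664 and 149021188 UMIs.

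Each of the 7 classes with 50 or more cells in every library was summed by library and tested 2-sided with edgeR's quasi-likelihood test (robust, TMM, filterByExpr), adjusted by Benjamini-Hochberg over all genes tested. Class against tumour cells, and the class by treatment term, used the library as a block. Every adjusted p is from these fits unless DESeq2 is named. CPM levels of members are not TMM-scaled, whereas summed ratios, levels of other genes and the values behind the counts of groups without overlap are. The members of highest level or smallest p in tumour cells, and the 3 of highest level per class, were described in depth, and non-members named were chosen after their values were seen. With 2 against 2 libraries, no permutation test can reach 0.05. Intervals are exact 95% binomial and, like the level of 3 UMIs given beside a count of 0, cover counting error only.

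The alternatives exchanged edgeR for DESeq2 or TMM for DESeq2's size factors, dropped the filter on low counts, left out each library, blocked on the sample number, asked for 500 genes and 10% mitochondrial UMIs, kept doublets, clustered on all variable genes, picked tumour cells singly by UMIs of YFP plus Cdkn2a, and thinned to 1000 UMIs or not at all. A sum without Ifi27l2a was chosen after seeing the data. Some of the fits were also run on counts simulated from their own fitted means and spread. Such runs cannot show how the fits behave on real differences between libraries. Gene positions are GENCODE's for GRCm38. One item of the genotype is not reported here. The software was scanpy 1.11.5, leidenalg 0.10.2 and scipy 1.17.1 under Python 3.11.15, and DESeq2 1.42.0, edgeR 4.0.16 and limma 3.58.1 under R 4.3.3.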

Additional observations from a re-analysis of the deposited data

Results flagged for a closer look

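Members whose NP137 effect in another class differed from that in tumour cells, by the class by treatment term in edgeR with the library as a block, were singled out. Each value is the log2 fold change, NP137 over control, in the class minus that in tumour cells, and each is above 0. In the tumour part of each value, treatment and tumour cell state cannot be told apart. In neutrophil-like cells it was 7.23 for Ifit3, 6.25 for Ifit3b, 5.24 for Ifit1, 5.16 for Ifit2, 3.71 for Bst2, 3.08 for Isg15, 3.02 for Rtp4 and 2.55 for Zbp1. In T cell-like cells it was 8.01 for Ifit3, 6.57 for Ifit1, 2.84 for Zbp1 and 2.10 for Bst2. In fibroblast-like cells it was 6.33 for Ifit3 and 3.90 for Ifit1, and in pericyte or smooth muscle-like cells 5.12 for Ifit3. The tumour cells take part in each of these comparisons, so the values are not independent of one another, and Ifit3 rested on 1 and 2 UMIs in the NP137 tumour cells and on 2, 3, 1 and 60 UMIs in the T cell-like cells of the 4 libraries.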

How the results depend on the processing

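The count of members called between NP137 and control, 0 in all 7 classes, moved in 4. In tumour cells it was 14 by DESeq2 (2258 of 14166 genes) and 7 with no filter on low counts (1347 of 21879 genes). With no filter it was 1 in endothelial (126 of 16460 genes), 2 in pericyte or smooth muscle (58 of 16561) and 2 in T cell-like cells (202 of 15878). The log2 ratio of the summed level ran from -1.94 to -0.34 in tumour cells when 1 library was left out, and was -0.27 with no doublets removed. Leaving out 1 library gave -1.79 to 0.19 in endothelial, -1.27 to 0.16 in pericyte or smooth muscle, -1.35 to 0.38 in fibroblast and -0.42 to 1.30 in T cell-like cells. Without Ifi27l2a it went from 0.66 to 0.01 in T cell-like and from 0.22 to -0.06 in macrophage or monocyte-like cells, and the direction held in the other 5 classes.

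Members called against tumour cells, in either direction, with 1 library left out numbered 17 to 24 in endothelial, 9 to 19 in pericyte or smooth muscle, 6 to 17 in fibroblast and 6 to 16 in T cell-like cells. Members with a different NP137 effect, in either direction, numbered 0 to 3 in endothelial, 0 to 6 in macrophage or monocyte, 0 to 4 in pericyte or smooth muscle, 1 to 14 in fibroblast, 1 to 12 in T cell-like and 2 to 12 in neutrophil-like cells with 1 library left out. By DESeq2 they numbered 6 in endothelial (482 of 13573 genes) and 10 in macrophage or monocyte-like cells (478 of 14371). They numbered 4 in pericyte or smooth muscle-like (513 of 13818) and 5 in fibroblast-like cells (773 of 15046). With no filter they numbered 7 in endothelial (540 of 22110 genes), 9 in macrophage or monocyte (334 of 22408) and 3 in pericyte or smooth muscle-like cells (432 of 22123). They then numbered 6 in fibroblast (866 of 22627), 9 in T cell-like (601 of 22170) and 14 in neutrophil-like cells (690 of 22297). With clusters made from all variable genes they numbered 0 in pericyte or smooth muscle (76 of 13883 genes) and 0 in fibroblast-like cells (223 of 15296).

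Of 359 values of single members in tumour cells over 12 alternatives, 12 changed direction, 28 passed the test where the reported value did not and 319 did neither. With no doublets removed the log2 fold change was 0.026 for Ifi204, 0.22 for Irf7, 0.60 for Lgals3bp, 0.65 for Zbp1, 1.58 for Trim30a and 2.26 for Oas1a. Oas1a was 0.17 with clusters from all variable genes, 0.042 under the stricter cell filter and 0.20 when the sample number was a block. With 1 library left out Oas1a ran from -0.94 to 0.15, Oasl1 from -2.84 to 0.14 and Ifi27l2a from -0.68 to 2.01, above 0 without NP137 1 for Oas1a and without control 2 for Oasl1, and below 0 without NP137 2 for Ifi27l2a. The cause was not tested. The share of tumour cells with an Isg15 UMI was 1.79%, 7.93%, 0.254% and 0.851% in control 1, control 2, NP137 1 and NP137 2 at 1000 UMIs, and 9.57%, 40.6%, 3.27% and 8.89% without thinning.

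Libraries of the same sample number had deviations that correlated at 0.0413 in tumour cells (13954 genes), 0.164 in macrophage or monocyte-like (11033 genes) and -0.0394 in endothelial cells (8572 genes), and the labels do not say that a number pairs them. With the number as a replicate block 0 members were called in all 7 classes and 61 genes in tumour cells, and the members at an unadjusted p under 0.05 went from 0 to 13 of 28 in endothelial and from 3 to 12 of 23 in pericyte or smooth muscle-like cells (663 of 9132 and 272 of 8786 genes). Beyond the 2 libraries per group, depth limits the rarest members, since 3 UMIs equal 0.103 CPM in the tumour cells of NP137 1.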

Other observations

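In NP137 1 the cells with Xist UMIs alone and those with Y-linked UMIs alone were compared as values, with no test. The summed member level in CPM was 117 in 511 tumour cells with Xist and 107 in 1167 tumour cells with Y-linked UMIs. In macrophage or monocyte-like cells it was 1266 in 269 and 2208 in 177 cells, and in neutrophil-like cells 732 in 166 and 1273 in 183 cells. In fibroblast-like cells it was 497 in 104 and 562 in 79 cells. The gap was wider in both myeloid classes than in tumour cells.

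Among classes with too few cells in some library for a test, dendritic-like cells had a member sum in CPM of 1200 in control 1, 1050 in NP137 1 and 3002 in NP137 2, and of 2310 in control 2, where only 47 such cells were found. Lymphatic endothelial-like cells stood at 2882 in control 1 (47 cells), 5582 in control 2 (12 cells), 1140 in NP137 1 (63 cells) and 1386 in NP137 2 (23 cells). In both controls these few cells lay above the macrophage or monocyte-like cells, at 1603 and 4120. B cell-like and plasma cell-like cells, found almost entirely in NP137 2, stood at 1375 and 1539 there. Plasmacytoid dendritic-like cells of NP137 2 held 22.1 member UMIs per cell, led by Bst2, Ifi27l2a and Irf7.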
